A study of Rattus norvegicus with 8 samples.

Results

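The gene loci described here gained cover by trimethylated lysine 36 of histone H3 (H3K36me3) after angiotensin II (AngII) in rat vascular smooth muscle cells. They numbered 728 of 30937 listed loci, and 728 of the 8908 loci that could have been chosen, a share of 8.17%. Each had an accession, a coordinate string that no other locus used, at least 1 FPKM (fragments scaled to transcript length and library size) in either RNA library, and H3K36me3 regions over more than 20 percentage points more of its length after AngII than in control. The cover difference selected the loci and is therefore given only as a description, as is the same rule turned round: 267 eligible loci, 3% of them, lost more than 20 points. RNA change, locus length and H3K4me3 were not part of the choice, apart from the FPKM minimum.

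Primary vascular smooth muscle cells from thoracic aortas of Sprague-Dawley rats received 0.1 uM AngII for 3 h or no treatment. Overnight serum starvation is given for the AngII samples and not for the control samples, so AngII and starvation cannot be told apart from the labels. RNA, H3K4me3 and H3K36me3 were each profiled in 1 library per condition, so the differences have no replicates behind them, no test was possible and no p-value is given. The series has 8 samples, and the 2 input libraries were not analysed here.

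H3K36me3 is laid down on nucleosomes by the methyltransferase Setd2, which travels with elongating RNA polymerase II, so the mark covers the bodies of transcribed genes and is usually densest toward their 3′ ends. H3K4me3 marks the promoters of active or poised genes. AngII acts on smooth muscle cells through a G-protein-coupled receptor, and its early response includes transcription factor genes that are switched on without new protein synthesis.

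The cells carried smooth muscle RNAs at high level. Of 22 contractile and actin genes with a matched locus, 21 reached 1 FPKM, with a summed level of 14326 FPKM after AngII and 13271 FPKM in control. None of 7 endothelial markers reached 1 FPKM, the highest being Esam at 0.668 FPKM. Leukocyte markers summed to 12.4 FPKM after AngII and 11.6 FPKM in control, with 2 of 9 above 1 FPKM, and adventitial fibroblast markers to 282 FPKM after AngII and 323 FPKM in control, with 7 of 8 above 1 FPKM. Adipocyte, Schwann cell and neuron markers summed to 3.98 FPKM after AngII and 2.78 FPKM in control, with 2 of 10 above 1 FPKM. In such bulk libraries, fewer cells of a type and less RNA per cell cannot be told apart. The median eligible locus had a log2 ratio of AngII over control of -0.22, and ratios below are as deposited, so they are to be read against that value.

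Promoters of the gaining loci that stand at either extreme of RNA change are shown first, because these loci carry the contrast on which the results turn. They are the 5 with the highest and the 3 with the lowest FPKM ratio among 53 gaining loci that had separated FPKM bounds, H3K4me3 in both conditions, 1 listed locus and 1 promoter in the RefSeq table of the assembly GRCr8. Each line holds the 250 bases before the annotated start, 5′ to 3′, with Fosl1, Dusp5, Noct, Egr2 and Flt1 higher after AngII and Coq8a, Kcne4 and Rgs4 lower. Capitals mark a match on either strand to the AP-1 site TGANTCA, the full cyclic AMP response element TGACGTCA, the EGR site GCGNGGGCG, the TATA box TATAAA, the CArG box bound by serum response factor, or the NF-kB site. Their GRCr8 positions are Fosl1 chr1:212183635-212183884 on the plus strand, Dusp5 chr1:262543524-262543773 on the plus strand, Noct chr2:137421824-137422073 on the plus strand, Egr2 chr20:21054442-21054691 on the minus strand, Flt1 chr12:12333180-12333429 on the plus strand, Coq8a chr13:94463379-94463628 on the minus strand, Kcne4 chr9:87695798-87696047 on the plus strand, Rgs4 chr13:84475885-84476134 on the minus strand.
Fosl1: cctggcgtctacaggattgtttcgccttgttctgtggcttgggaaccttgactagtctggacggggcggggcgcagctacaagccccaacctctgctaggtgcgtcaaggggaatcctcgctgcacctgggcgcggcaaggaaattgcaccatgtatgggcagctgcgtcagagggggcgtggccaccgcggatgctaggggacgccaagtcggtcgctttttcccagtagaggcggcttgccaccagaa
Dusp5: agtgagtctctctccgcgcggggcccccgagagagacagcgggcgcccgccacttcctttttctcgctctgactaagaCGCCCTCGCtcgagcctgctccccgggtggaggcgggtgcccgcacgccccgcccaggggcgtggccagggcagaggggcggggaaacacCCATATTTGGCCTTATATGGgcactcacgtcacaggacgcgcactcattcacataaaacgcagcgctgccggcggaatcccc
Noct: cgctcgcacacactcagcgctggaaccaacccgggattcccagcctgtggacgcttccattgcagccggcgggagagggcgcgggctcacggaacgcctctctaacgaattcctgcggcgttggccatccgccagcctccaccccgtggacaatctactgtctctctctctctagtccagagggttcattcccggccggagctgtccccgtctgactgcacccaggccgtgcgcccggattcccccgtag
Egr2: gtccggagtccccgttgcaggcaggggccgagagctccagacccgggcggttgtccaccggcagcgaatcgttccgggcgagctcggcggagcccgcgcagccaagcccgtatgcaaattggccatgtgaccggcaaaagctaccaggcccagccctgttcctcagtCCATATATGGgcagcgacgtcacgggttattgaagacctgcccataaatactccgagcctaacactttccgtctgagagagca
Flt1: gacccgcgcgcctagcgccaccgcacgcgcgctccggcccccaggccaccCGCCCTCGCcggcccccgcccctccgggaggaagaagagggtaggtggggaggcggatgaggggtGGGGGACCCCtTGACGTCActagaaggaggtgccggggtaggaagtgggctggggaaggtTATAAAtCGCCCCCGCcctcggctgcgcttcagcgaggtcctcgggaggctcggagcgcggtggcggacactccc
Coq8a: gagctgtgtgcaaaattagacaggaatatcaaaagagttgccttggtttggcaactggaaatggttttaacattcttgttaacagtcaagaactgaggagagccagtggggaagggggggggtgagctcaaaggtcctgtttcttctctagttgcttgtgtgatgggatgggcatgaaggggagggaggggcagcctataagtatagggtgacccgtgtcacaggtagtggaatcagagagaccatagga
Kcne4: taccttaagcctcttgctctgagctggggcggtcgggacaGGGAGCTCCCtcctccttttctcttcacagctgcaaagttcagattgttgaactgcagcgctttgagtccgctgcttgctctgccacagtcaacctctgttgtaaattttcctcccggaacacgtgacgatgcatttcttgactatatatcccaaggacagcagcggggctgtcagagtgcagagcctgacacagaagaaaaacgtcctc
Rgs4: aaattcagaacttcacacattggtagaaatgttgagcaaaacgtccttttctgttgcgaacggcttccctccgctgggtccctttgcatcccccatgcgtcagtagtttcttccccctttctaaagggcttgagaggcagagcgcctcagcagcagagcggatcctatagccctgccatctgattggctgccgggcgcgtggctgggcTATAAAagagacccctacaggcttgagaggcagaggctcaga

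Dusp5 held a tandem of CArG boxes and an EGR site, Egr2 held a CArG box starting 83 bases before the start, and Flt1 held EGR sites, a full cyclic AMP response element, a TATA box and an NF-kB match. Kcne4 held an NF-kB match and Rgs4 a TATA box, while Fosl1, Noct and Coq8a held none of these letters in the window. Across 418 gaining genes with 1 promoter, the EGR site occurred in 13.9%, against 8.61% of 5171 eligible genes and 4.69% of all 24206 promoters in the table. It occurred in 21.2% of the 52 promoters whose loci gained and had RNA at least 2-fold higher. The TATA box, NF-kB site and CArG box were also more frequent in those 52 than in eligible genes, in 8 promoters or fewer each. The TATA box and the NF-kB site were each in 15.4%, against 5.98% and 8.22%. The CArG box was in 3.85%, against 0.967%, which is 2 promoters, those of Dusp5 and Egr2. The AP-1 site was in 5.77%, or 3 promoters, against 4.39%. The full cyclic AMP response element was in 3.85%, or 2 promoters, against 3.33%. Both lay close to the share of eligible genes. The CArG box occurred in 0.957% of gaining genes, against 0.967% of eligible genes and 1.51% of all promoters. The AP-1 site occurred in 4.07% of gaining genes, against 4.39% and 6.35% for eligible genes and all promoters. For the TATA box the share was 6.94% of gaining genes, against 5.98% of eligible genes and 13.3% of all promoters. The full cyclic AMP response element was found in 2.15%, 3.33% and 1.72% of these sets, and the NF-kB site in 11.2%, 8.22% and 6.40%. These shares describe letters in a window; base composition is shared by EGR and NF-kB matches and was not separated from them.

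The gained cover was large at most of these loci. Across the 728, regions covered a median of 98.9% of the locus after AngII (quartiles 81.3% and 100%), against 31.8% in control (quartiles 0% and 60.4%). The median gain was 46.2 points, or 7.89 kb of sequence. In control 243 loci had no H3K36me3 region at all, 335 were wholly covered after AngII, and 127 were wholly covered after AngII and bare in control. By comparison, the median eligible locus was wholly covered in both conditions, and 5234 of 8908 had no uncovered base in control. A gain above the threshold was possible only for the 1917 loci under 80% covered in control, called loci with room below, of which 38.0% gained and 1189 did not gain that much. The gain depended on region score and edges at a part of the loci. Without the bottom quartile of regions by score in each list, 532 of the 728 were still past the threshold and 159 stood at 0 points or below. With control regions widened by 1 control step at each side, a setting chosen after seeing the data, 616 were still past it, and 437 were under each setting taken alone. Of the gaining loci with RNA at least 2-fold higher, described below, 60 of 76 were past it under each, as were 366 of 631 within 2-fold and 11 of 21 at least 2-fold lower.

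The loci at the threshold show how little separates the closest of them. Just inside were G6pc3, a glucose-6-phosphatase subunit gene, with 100% of its length covered after AngII and 79.9% in control, and Ahcy, which encodes adenosylhomocysteinase, with 100% after AngII and 79.7% in control. Just outside were Lyn, a Src-family kinase gene, with 44.97% after AngII and 25.03% in control, and Foxs1, a forkhead factor gene, with 100% after AngII and 80.1% in control. Foxs1 RNA stood at 177 FPKM after AngII and 43.2 FPKM in control. Between Tm7sf3, a gain of 20.3 points, and Rspo1, a gain of 19.9 points, lie all 10 of these nearest loci.

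New regions were the less common form of gain. At 153 loci every AngII region overlapped no control region, and at 575 an AngII region overlapped one that was already there in control. The same split was not counted over all eligible loci, so it describes the gaining loci and does not set them apart. Even among the 243 loci bare in control, 92 were reached by an AngII region that overlapped a control region elsewhere. The main AngII region of a gaining locus was narrower than that of eligible loci as a whole, with a median of 39.5 kb against 63.0 kb, and its deposited score stood at the 44.98th percentile of the list, against 64.1 for eligible loci. The loci are not all separate events: 50 of them shared their main AngII region with another gaining locus, in 24 regions, leaving 702 distinct main regions. One region of 69.0 kb on rat chromosome 6 held 4 of them, among them Crip1, a LIM-domain protein gene, with log2 ratios from -0.66 to 0.08.

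A minority of the gaining loci had a large RNA change, and among these higher RNA was more common than lower. RNA was at least 2-fold higher after AngII, with 1 FPKM added to both values, at 76 of 728 gaining loci, or 10.4% (95% interval 8.31 to 12.9%), against 3.65% of all eligible loci. With separated FPKM bounds the count was 66, or 9.07%, against 2.53% of eligible loci. RNA was at least 2-fold lower at 21 gaining loci, or 2.88% (1.79 to 4.38%), against 3.31% of eligible loci, and with separated bounds at 15, or 2.06%, against 1.84%. The remaining 631 loci, 86.7%, stayed within 2-fold. Intervals are exact Clopper-Pearson and cover counting error only. The bounds are model errors deposited with each estimate, 2 SD to either side, and hold no replicate variation.

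The centre of the RNA distribution did not stand apart. Gaining loci had a median log2 ratio of -0.21 (quartiles -0.48 and 0.24), against -0.22 for eligible loci, -0.27 for loci with room that did not gain, and -0.36 for losing loci. The ratio was above 0 at 254 gaining loci, or 34.9%, against 31.1% of eligible loci. With AngII values scaled by 1.19 so that the median eligible locus had a ratio of 0, 12.8% of gaining loci were at least 2-fold higher and 1.10% lower, against 5.29% and 1.63% of eligible loci. Losing loci showed the other split, with 1 of 267 at least 2-fold higher (0.375%) and 16 lower (5.99%). Loci with room that did not gain had 36 of 1189 higher (3.03%) and 44 lower (3.70%).

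**Figure D1:**
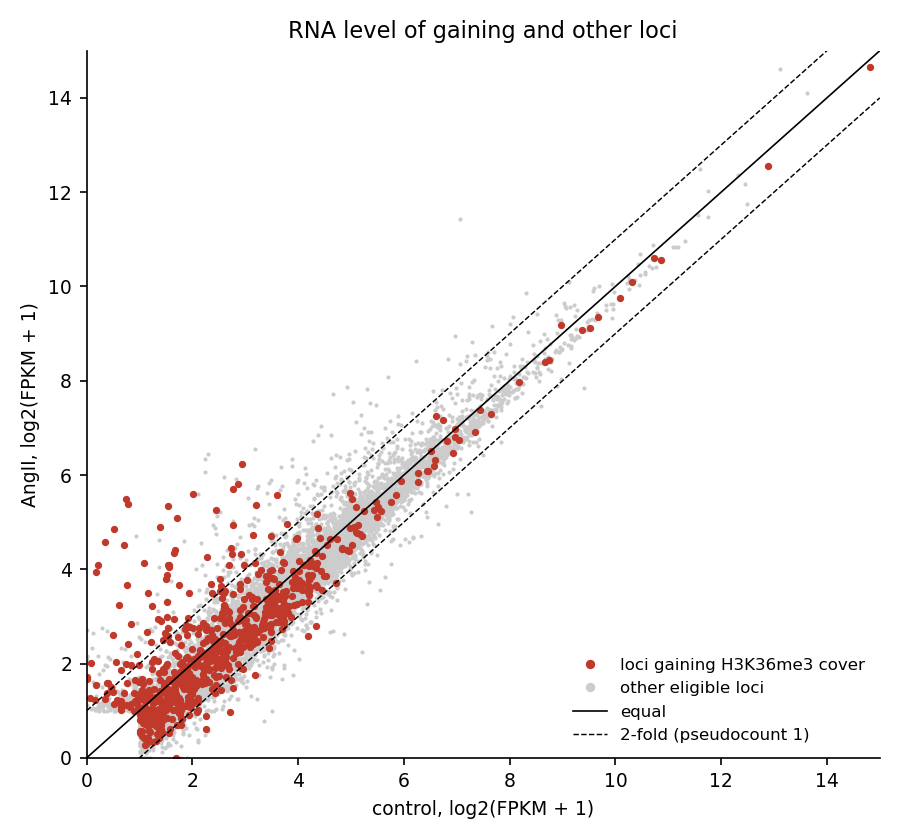
Each point is an eligible locus, with log2(FPKM + 1) after AngII on the vertical axis and in control on the horizontal axis. Red points are the 728 gaining loci, grey points the other eligible loci, the solid line is equality and the dashed lines mark 2-fold on this scale; 76 red points lie on or above the upper dashed line and 21 on or below the lower one.

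Gaining loci were also weakly transcribed for this table, with a median of 4.02 FPKM after AngII and 3.92 FPKM in control. The medians of eligible loci were 9.19 FPKM after AngII and 10.4 FPKM in control. Loci with room that did not gain were as weakly transcribed, at 3.55 FPKM after AngII and 4.04 FPKM in control, so the low level was not particular to gaining loci. Of loci whose higher value lay between 2 and 5 FPKM, 16.0% gained, against 2.62% of those between 30 and 100 FPKM. Among loci with room the shares were closer, at 41.1% and 31.5%. Of 255 loci at or above 1 FPKM after AngII and under it in control, 51 gained (interval 15.3 to 25.4%). Of 643 with the opposite crossing, 78 gained, or 12.1%, against 7.48% of loci at or above 1 FPKM in both. Among loci with room the shares were 45.9%, 32.1% and 38.3%, in that order. Crossing loci met the FPKM minimum only through the library where they were higher. That holds, through the AngII library, for Fosl1, Arc, Dusp5, Nr4a3, Hivep3, Egr2 and Egr3, described below. The same is true of Nfil3, Atf3, Dusp2, Lif, Klhl40 and the short Postn locus. Coq8a, Kcne4, Tfap4 and Henmt1 met the minimum only through the control library. Of loci without a gain, Dusp4, Olr1, Ccl2, Cxcl1, Ccl7 and Mir3593 met it only through the AngII library.

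The share of loci that gained was higher in the upper classes of RNA ratio. It was 7.12% of loci at least 2-fold lower, 8.999% of those 1.41 to 2-fold lower, 7.25% and 6.52% of those up to 1.41-fold lower and higher, 10.1% of those 1.41 to 2-fold higher, 19.5% of those 2 to 4-fold higher and 34.5% of those at least 4-fold higher, where 29 of 84 gained. Among loci with room the same classes gave 32.3%, 37.3%, 35.0%, 35.9%, 43.0%, 63.5% and 76.3%. The upper classes therefore stood out and the lower classes lay close together. In all, 76 of 112 loci with room and RNA at least 2-fold higher gained (67.9%, interval 58.4 to 76.4%), against 631 of 1740 within 2-fold (36.3%, 34.0 to 38.6%) and 21 of 65 at least 2-fold lower (32.3%, 21.2 to 45.1%).

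The same contrast was present at each level of control cover. Among loci bare in control, 62.0% of those at least 2-fold higher gained, against 29.0% of those within 2-fold. Above 0 and up to 40% covered, the shares were 68.0% and 37.4%, and from 40 to 80% covered they were 75.7% and 43.1%.

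**Figure D2:**
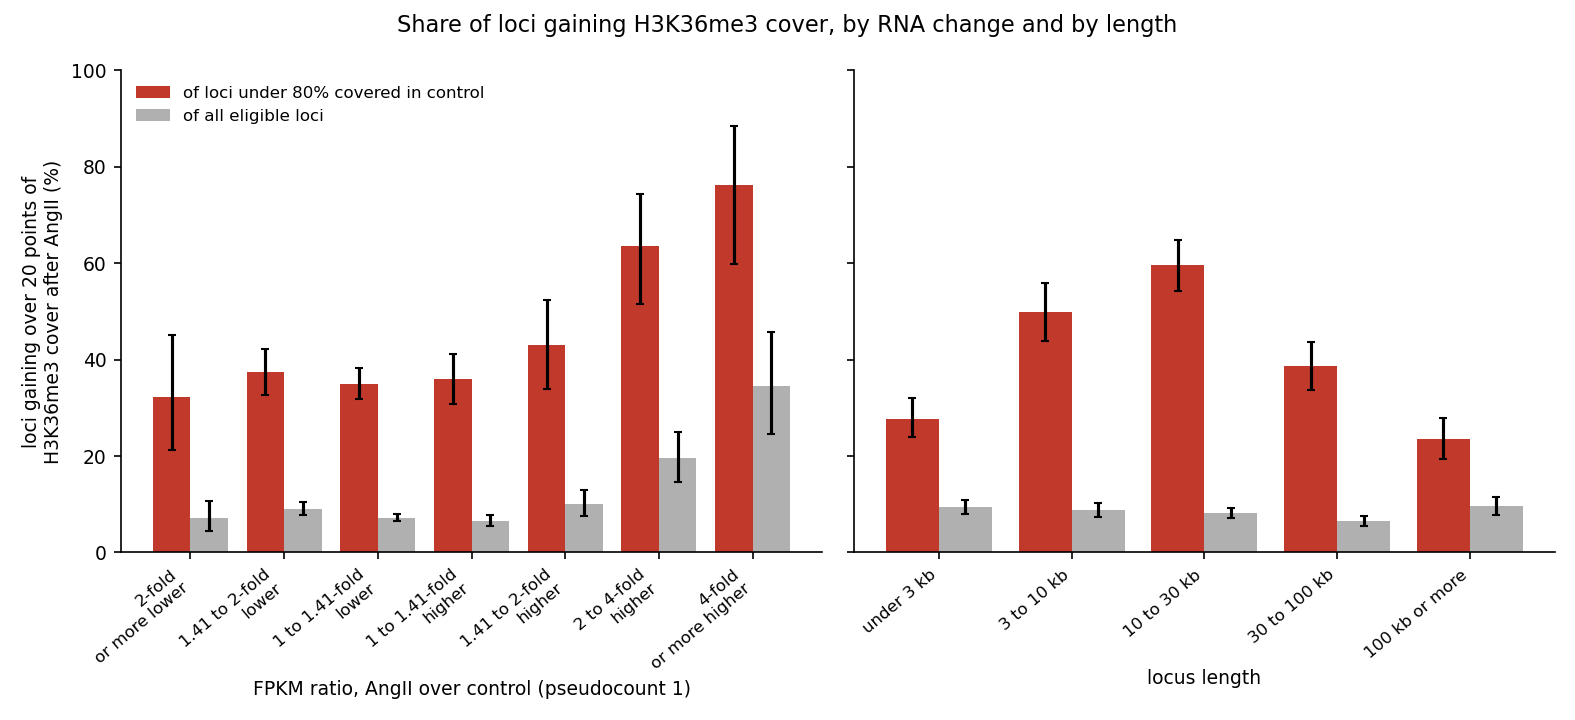
Bars give the percentage of loci that gained more than 20 points of H3K36me3 cover, by FPKM ratio class at left and by locus length at right; red bars are shares of loci under 80% covered in control, grey bars of all eligible loci, and error bars are exact 95% intervals for counting error. Red bars reach 63.5% and 76.3% in the top ratio classes, and by length they are highest at 59.6% for 10 to 30 kb.

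The share of eligible loci that gained differed little with locus length. Gaining loci had a median length of 16.8 kb (quartiles 4.45 and 47.6 kb), against 19.4 kb for eligible loci. The share that gained was 9.34% of loci under 3 kb, 8.73% from 3 to 10 kb, 8.12% from 10 to 30 kb, 6.49% from 30 to 100 kb and 9.59% of longer loci. Among loci with room, by contrast, the middle lengths stood out: 27.8% gained under 3 kb, 49.8% from 3 to 10 kb, 59.6% from 10 to 30 kb, 38.7% from 30 to 100 kb and 23.5% beyond. Within each length class, loci with room and at least 2-fold higher RNA gained more often than those within 2-fold, at 63.2% against 26.1%, 60.9% against 49.6%, 79.2% against 58.6%, 71.4% against 36.3%, and 61.1% against 21.9% from the shortest class to the longest. The intervals of these shares overlap from 3 to 10 kb, at 38.5 to 80.3% and 43.3 to 55.9%, and from 10 to 30 kb, at 57.8 to 92.9% and 52.8 to 64.1%.

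Length also sets what a percentage means. H3K36me3 regions come in whole steps of 548 bp after AngII and 589 bp in control, and 20 gaining loci are shorter than 1 such AngII step and 44 shorter than 1 kb. Of the 5 gaining loci with the highest control FPKM, 4 were at most 0.521 kb long and matched no symbol. The most abundant, NR_001460, had 25790 FPKM after AngII and 28926 FPKM in control over 0.276 kb, and whether such short loci share reads with other copies was not tested. At the other end, Cdh13, the T-cadherin gene, gained 382 kb, with 65.3% of its 1068 kb covered after AngII and 29.5% in control; without the bottom quartile of regions by score its cover difference turned to -1.25 points. Its RNA was 26.8 FPKM after AngII and 32.9 FPKM in control, with overlapping bounds. Ptprg, a receptor tyrosine phosphatase gene, gained 218 kb, or 32.0 points, and 10.7 points without the bottom quartile of regions by score, at 9.19 FPKM after AngII and 11.0 FPKM in control. Prkce, which encodes protein kinase C epsilon, gained 185 kb at 2.03 FPKM after AngII and 2.72 FPKM in control. Of the 6 loci with the most gained sequence, only Hivep3, a zinc-finger factor gene, had separated FPKM bounds: 162 kb was gained, and RNA stood at 16.0 FPKM after AngII against 0.168 FPKM in control.

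The gaining loci with the largest RNA ratios were led by immediate early genes. Of 21 eligible loci on a list of such transcription factors, 11 gained, 1 lost and 9 did neither, and 12 had RNA at least 2-fold higher, of which 9 gained. Over all eligible loci 8.17% gained, 3% lost and 3.65% were at least 2-fold higher. The list had a median gain of 21.7 points and a median log2 ratio of 1.10, against 0 points and -0.22 over all eligible loci. Of its 12 loci with room, 11 gained, against 38.0% of all loci with room. The exception was Ier5, an early response gene with 88.3% cover after AngII and 78.1% in control. The list was drawn up with earlier results of these data known, so its counts are not independent evidence of its direction.

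Fosl1, which encodes the AP-1 subunit Fra-1, lies at chr1:208090611-208099118 of the build rn4. It had 43.9 FPKM after AngII (bounds 25.7 to 62.1) and 0.685 FPKM in control (0.242 to 1.13), a log2 ratio of 4.74. Regions covered 100% of it after AngII and 55.6% in control. Arc, an early gene that is on the list although its product is a cytoskeleton-associated protein, lies at chr7:112771936-112775381 and had 40.8 FPKM after AngII (23.8 to 57.7) and 0.722 FPKM in control (0.297 to 1.15). Arc was wholly covered after AngII and bare in control. Bounds were far apart at both loci.

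The same pattern, all of the locus covered after AngII and none of it in control, held at several zinc-finger and nuclear receptor genes. Nr4a3, an orphan nuclear receptor gene of 39.8 kb at chr5:64713467-64753306, had 22.8 FPKM after AngII (14.5 to 31.1) and 0.279 FPKM in control (0.120 to 0.438). Egr2, a zinc-finger factor gene at chr20:21883884-21888177, had 21.7 FPKM after AngII (12.7 to 30.8) and 0.632 FPKM in control (0.245 to 1.02); the CArG box printed above lies before its start. Egr3, its relative at chr15:50477452-50479909, had 14.4 FPKM after AngII (7.84 to 20.9) and 0.135 FPKM in control (0 to 0.270). All of these loci have bounds that do not meet.

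Fos, the core AP-1 subunit gene, was wholly covered after AngII and bare in control, with 10.3 FPKM after AngII (5.66 to 14.96) and 1.24 FPKM in control (0.502 to 1.98). Atf3, a stress-responsive bZIP factor gene, was also wholly covered after AngII and bare in control, at a much lower RNA level, with 1.35 FPKM after AngII (0.577 to 2.12) and 0.115 FPKM in control (0.00659 to 0.224). Without the bottom quartile of regions by score the Atf3 gain was 0 points. Nfil3, another bZIP factor gene, had 94.4% cover and 8.48 FPKM after AngII against 65.7% and 0.522 FPKM in control. Hivep3 went with them in RNA but not in extent, at 51.1% cover after AngII and 0.733% in control. Cebpb and Nr4a2, the other listed factors past the threshold, had overlapping FPKM bounds. Cebpb had 100% cover and 16.1 FPKM after AngII against 78.3% and 16.4 FPKM in control, and Nr4a2 had 35.0% cover and 1.66 FPKM after AngII against 0% and 1.88 FPKM in control. Neither gain held under every setting: it was 0 points at Cebpb with control regions widened by 1 step, and 0 points at Nr4a2 without the bottom quartile of regions by score.

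Listed factors without a gain were mostly covered already. Maff, a small Maf factor gene, was wholly covered in both conditions at 47.7 FPKM after AngII and 14.9 FPKM in control. Csrnp1 had 96.5% cover and 41.0 FPKM after AngII, against 92.1% and 9.91 FPKM in control. Jun was wholly covered in both, at 32.3 FPKM after AngII and 16.9 FPKM in control. Klf2, a shear-responsive factor gene, lost cover, with 73.8% after AngII and 97.3% in control, at 1.98 FPKM after AngII and 1.79 FPKM in control.

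**Figure D3:**
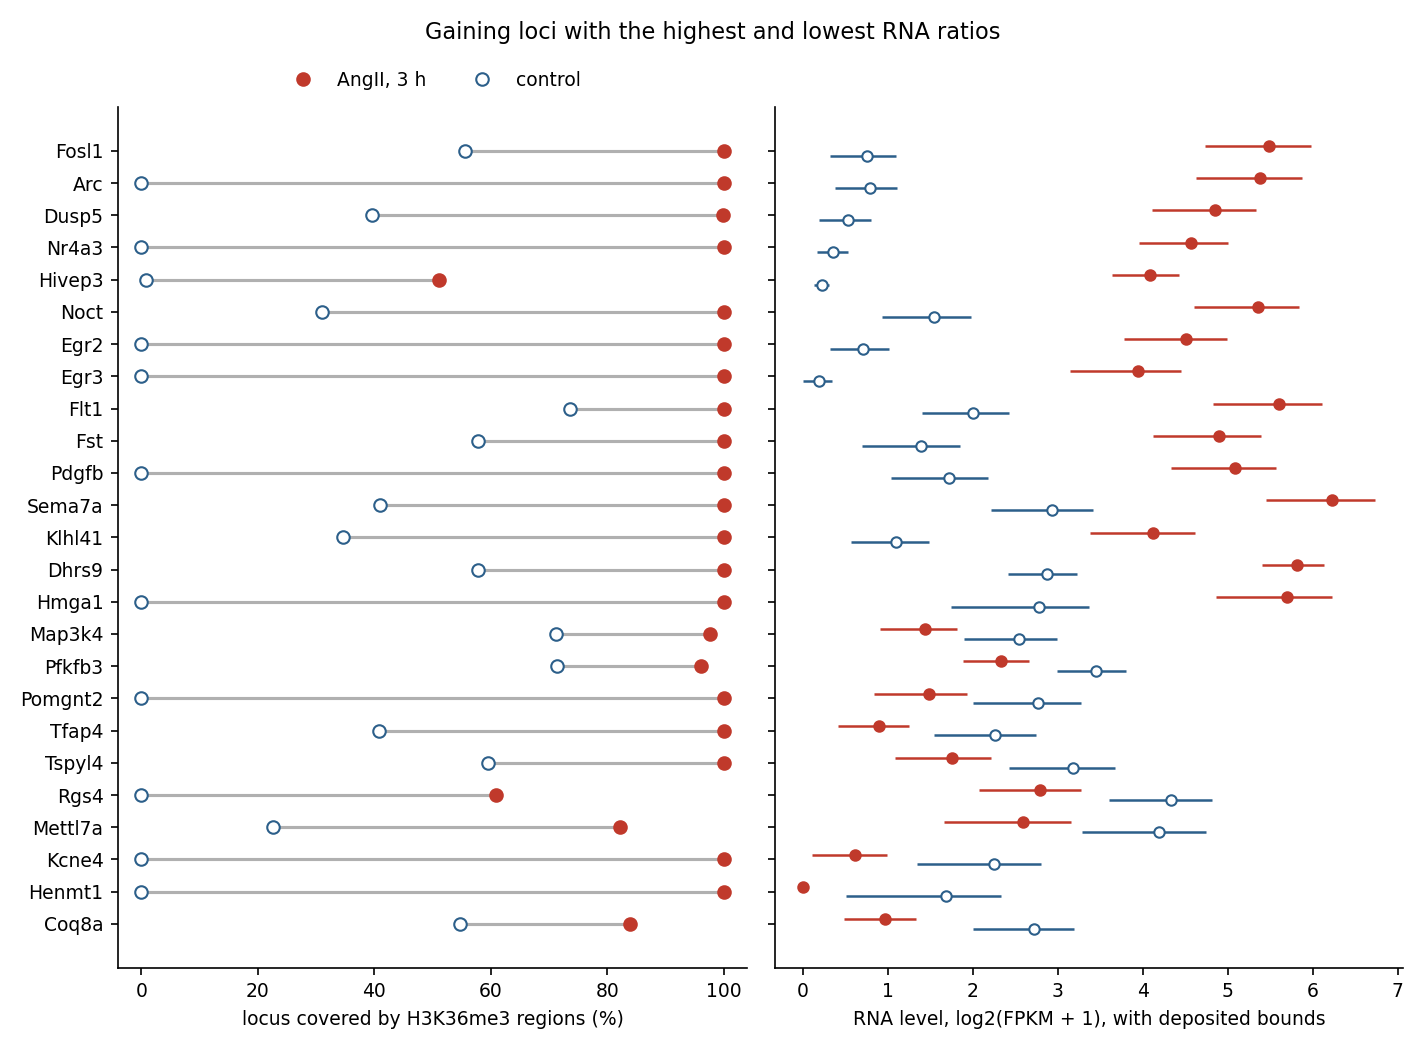
Left, percentage of the locus covered by H3K36me3 regions; right, log2(FPKM + 1) with the deposited bounds as lines; filled red circles are AngII, open blue circles control. The 15 gaining loci with the highest RNA ratios are above and the 10 with the lowest below: cover is higher after AngII in all 25 because that chose them, while RNA lies to the right of control in the upper set, Fosl1 at 43.9 against 0.685 FPKM, and to the left in the lower set, Rgs4 at 5.92 against 19.2 FPKM.

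Regulators that damp signalling were covered in control about as often as eligible loci as a whole. Of 22 eligible loci on a list of feedback regulators of MAP kinase, G-protein and NF-kB signalling, 4 gained, against 8.17% of all eligible loci, and 17 had at least 80% control cover, against 78.5%. RNA was at least 2-fold higher at 12 of them, against 3.65% of all eligible loci; the median log2 ratio was 1.21 and the median gain 0 points. Dusp5, a nuclear ERK phosphatase gene at chr1:259754233-259767645, had 99.9% cover after AngII and 39.5% in control. Its RNA was 27.8 FPKM after AngII (16.2 to 39.5) and 0.438 FPKM in control (0.139 to 0.737), with bounds far apart. Dusp2, another nuclear MAP kinase phosphatase gene, had 75.2% cover and 5.05 FPKM after AngII, against 0% and 0.411 FPKM in control, and its gain was 0 points without the bottom quartile of regions by score.

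Dusp8 gained with level RNA, with a cover of 99.9% after AngII and 74.0% in control, at 3.38 FPKM after AngII and 2.74 FPKM in control. Rgs4, a brake on G-protein signalling at chr13:85533881-85540173, gained while its RNA was lower. Its cover was 61.0% after AngII and 0% in control, and its RNA 5.92 FPKM after AngII (3.21 to 8.62) and 19.2 FPKM in control (11.1 to 27.2). Listed genes of the same kind with full cover in both conditions included Dusp6, a cytoplasmic ERK phosphatase gene at 153 FPKM after AngII and 35.3 FPKM in control. Dusp4, a further phosphatase gene, had no region in either condition at 3.39 FPKM after AngII and 0.323 FPKM in control.

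Among 31 eligible loci of growth factors and cytokines, 4 gained, 2 lost and 12 had RNA at least 2-fold higher, against 8.17%, 3% and 3.65% of all eligible loci; the median log2 ratio was 0.10 and the median gain 0 points. Pdgfb, which encodes the B chain of platelet-derived growth factor, lies at chr7:118244384-118262021. It was wholly covered after AngII and bare in control, at 32.8 FPKM after AngII (19.1 to 46.6) and 2.28 FPKM in control (1.04 to 3.51). Lif, an interleukin-6 family cytokine gene, had 90.6% cover and 6.12 FPKM after AngII, against 52.5% and 0.795 FPKM in control. Ccn2, the connective tissue growth factor gene, was among the most abundant RNAs, at 5977 FPKM after AngII and 7534 FPKM in control with overlapping bounds. Its cover was 100% after AngII and 77.0% in control. Gdf15 had 100% cover and 4.44 FPKM after AngII, against 76.3% and 7.25 FPKM in control. With control regions widened by 1 step the gains were 16.9 points at Lif, 4.07 at Ccn2 and 0.890 at Gdf15, so that Pdgfb alone of the 4 stayed past the threshold.

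Of the growth factor and cytokine loci with higher RNA and no gain, some were covered in both conditions, and the chemokine genes Ccl2, Cxcl1 and Ccl7 were bare in both. Hbegf, a heparin-binding ligand of the epidermal growth factor receptor, had 100% cover and 225 FPKM after AngII, against 88.4% and 38.4 FPKM in control. Fgf2 had 100% cover and 34.0 FPKM after AngII, against 98.7% and 4.53 FPKM in control. Pdgfc lost cover, with 17.8% after AngII and 68.7% in control, at 4.44 FPKM after AngII and 7.27 FPKM in control.

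Other leading members fall outside the lists. Flt1, the gene of a receptor for vascular endothelial growth factor, spans chr12:7858091-8035966 and had 100% cover and 47.7 FPKM after AngII (27.3 to 68.0), against 73.6% and 3.01 FPKM in control (1.63 to 4.38). Noct, a clock-controlled gene of the deadenylase family, had 100% cover and 39.8 FPKM after AngII, against 31.1% and 1.92 FPKM in control. Hmga1, an architectural chromatin protein gene of 3.22 kb, was wholly covered after AngII and bare in control, at 51.0 FPKM after AngII (28.0 to 74.0) and 5.84 FPKM in control (2.34 to 9.33). Cover thus differed in starting point among these loci, from bare to mostly covered. The neighbour of Hmga1, Smim29, shared its AngII region of 89.9 kb, and this was the 1 shared region of 24 in which every gaining locus had at least 2-fold higher RNA. Fst, which encodes the activin antagonist follistatin, had 100% cover and 28.7 FPKM after AngII, against 57.7% and 1.62 FPKM in control. Sema7a, a membrane-anchored semaphorin gene, had 100% cover and 74.1 FPKM after AngII, against 41.0% and 6.63 FPKM in control, and its symbol matched 2 listed loci. Klhl41, a muscle kelch protein gene, and Dhrs9, a retinol dehydrogenase gene, had log2 ratios of 3.03 and 2.94 and whole cover after AngII.

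Separated bounds with lower RNA, at any size of change, were seen at 20 gaining loci, against 72 with higher RNA. The share of eligible loci under that rule was not counted, so these counts are a description only. At 2-fold or more, 15 gaining loci were lower with separated bounds, or 2.06%, close to the 1.84% of all eligible loci. Higher by the same rule were 66 gaining loci, or 9.07%, against 2.53% of eligible loci. Kcne4, a potassium channel subunit gene of 1.19 kb at chr9:78200903-78202092, was wholly covered after AngII and bare in control, but without the bottom quartile of regions by score its gain was 0 points. Its RNA was 0.530 FPKM after AngII (0.0710 to 0.989) and 3.76 FPKM in control (1.52 to 5.99). Coq8a, a mitochondrial coenzyme Q synthesis gene at chr13:95869375-95896742, had 84.0% cover and 0.956 FPKM after AngII (0.398 to 1.51), against 54.7% and 5.57 FPKM in control (2.99 to 8.16). Mettl7a, a methyltransferase-like gene whose symbol matched 2 listed loci, had 82.2% cover and 5.03 FPKM after AngII, against 22.6% and 17.3 FPKM in control. These loci carried more H3K36me3 cover beside lower RNA in the same pair of conditions.

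Tfap4, a basic helix-loop-helix factor gene, had 100% cover and 0.851 FPKM after AngII, against 40.9% and 3.80 FPKM in control. Pomgnt2, a glycosyltransferase gene, was covered wholly after AngII and not at all in control, at 1.79 FPKM after AngII and 5.82 FPKM in control. Pfkfb3, a regulator of glycolysis, had 96.1% cover and 4.01 FPKM after AngII, against 71.4% and 9.93 FPKM in control; without the bottom quartile of regions by score its cover difference turned to -7.59 points. Map3k4, a stress kinase gene, and Tspyl4 completed this set at log2 ratios of -1.11 and -1.43, and the Tspyl4 gain was 10.8 points with control regions widened by 1 step. Henmt1 was listed at 0 FPKM after AngII and 2.22 FPKM in control over a locus of 0.360 kb, shorter than 1 AngII step.

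Housekeeping and contractile groups gave few or no gains. None of 16 contractile and actin loci, 34 cytosolic ribosomal protein loci, 19 cell cycle loci, 16 loci of the unfolded protein and amino acid stress response, or 21 loci of H3K36 methyltransferases, demethylases and elongation factors gained. All 16 and all 34 of the first 2 groups had at least 80% control cover, as did 18, 14 and 20 of the others, so few could gain. Median log2 ratios were 0.14, -0.29, -0.43, 0.59 and -0.17 in these groups. One locus each of the ribosomal, cell cycle and H3K36 groups lost cover. These match Rpl32, Aurkb and Morf4l1, symbols that match more than 1 listed locus, and the other eligible Morf4l1 loci were wholly covered in both conditions. No locus of the H3K36 enzyme and elongation group was past 2-fold in either direction. Extracellular matrix, sterol synthesis and clock genes gave 1 gain each, of 22, 15 and 9 loci, against 8.17% of all eligible loci, and the matrix group also had 2 losses, at Lum and at a short Vcan locus. The 3 groups had median log2 ratios of -0.23, 0.37 and 0.30. The gains were at a Postn locus of 1.63 kb, at 1.63 FPKM after AngII and 0.406 FPKM in control, Dhcr7, at 2.95 FPKM after AngII and 6.26 FPKM in control, and Tef, at 6.35 FPKM after AngII and 10.9 FPKM in control, each with overlapping bounds. The main Postn locus of 31.2 kb did not gain, with 100% cover and 994 FPKM after AngII against 99.6% and 770 FPKM in control, and the short locus had a gain of 0 points with control regions widened by 1 step. Among marker loci of other cell types, 1 of 2 leukocyte, 1 of 6 adventitial and 1 of 2 adipocyte, Schwann cell and neuron loci gained, against 8.17% of all eligible loci, and no endothelial marker was eligible. The adventitial marker Lum lost cover, with 75.3% after AngII and 100% in control. The gains were at Cd74, Dpep1 and Tubb3, at 5.04, 2.44 and 3.27 FPKM after AngII and 5.51, 3.59 and 1.43 FPKM in control. The Tubb3 gain was 0 points without the bottom quartile of regions by score, and the Cd74 gain 16.4 points with control regions widened by 1 step.

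Promoter marking was present at most gaining loci in both conditions. An H3K4me3 region lay within 1 kb of 626 of 728 gaining loci in both conditions, or 86.0% (interval 83.3 to 88.4%), against 86.1% of eligible loci and 73.3% of loci with room that did not gain. Only 8 gaining loci had H3K4me3 after AngII alone, 11 had it in control alone and 83 in neither. Among named loci bare of H3K36me3 in control, Arc, Nr4a3, Egr2, Egr3, Fos, Pdgfb and Hmga1 carried H3K4me3 in both conditions. Pomgnt2 and Henmt1 carried it in neither, and some short loci without a symbol carried it after AngII alone. The share over all 243 loci bare in control was not counted.

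H3K4me3 width differed little between conditions at gaining loci as a whole. Over the 626 loci the summed width of nearby H3K4me3 regions had a median of 3.42 kb after AngII and 3.30 kb in control, and the median difference was 0.007 kb, with 50.5% wider after AngII, against 0.074 kb and 55.3% over the 7669 eligible loci with H3K4me3 in both. Where RNA was at least 2-fold higher, 54 of 74 gaining loci were wider after AngII, with a median difference of 0.52 kb. Loci with RNA at least 2-fold higher that did not gain showed this too, at 178 of 220 wider and a median difference of 0.951 kb. Gaining loci within 2-fold had a median difference of -0.016 kb, and those at least 2-fold lower 0.021 kb.

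Along the locus, the gain was larger toward the end marked by H3K4me3. Strand is not in the tables, so direction was taken from H3K4me3 at exactly 1 end in both conditions, which 432 of 535 gaining loci of at least 5 kb had. Over 5 equal segments counted from that end, mean cover after AngII was 73.1, 83.9, 87.3, 90.2 and 90.1%, against 18.0, 26.2, 38.5, 49.3 and 55.5% in control. The differences were 55.0, 57.7, 48.8, 40.9 and 34.6 points. The 5 kb before the marked end differed by 20.01 points and the 5 kb past the other end by 23.3 points, so the gain extended beyond the loci. Control cover at these loci was thus sparse near the marked end and fuller at the far end, and AngII cover was near full length.

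In points, the slope was steeper where RNA was at least 2-fold higher. Over those 48 loci the differences were 76.4, 69.2, 62.1, 42.8 and 43.9 points from the marked end, against 52.4, 56.3, 47.1, 40.7 and 33.5 points over the other 384. Losing loci, 120 of which could be oriented, differed most at the same end, by -47.8 points in the first segment and -21.2 points in the last. The 577 oriented loci with room that did not gain differed by no more than 1.24 points in any segment. These profiles describe loci chosen on the sum of the same cover. Sequence left uncovered in control caps each difference, and the differences were not scaled to it. Over the 48 loci, mean control cover was 10.6% in the first segment and 49.2% in the last. Over the other 384 gaining loci it was 19.0% and 56.3%.

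**Figure D4:**
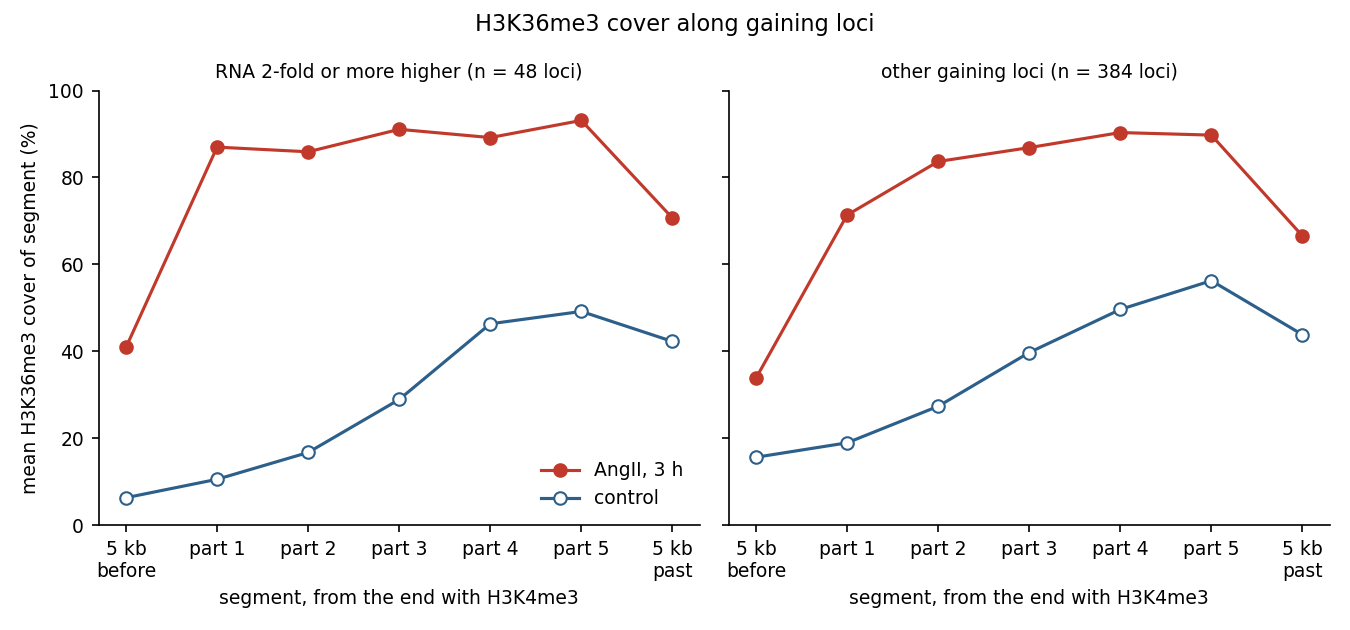
Mean percentage of each segment covered by H3K36me3 regions, in the 5 kb before the end with H3K4me3, in 5 equal segments of the locus and in the 5 kb past the other end; filled red circles are AngII, open blue circles control. In the 48 gaining loci with RNA at least 2-fold higher, at left, the first segment of the locus has 87.0% after AngII and 10.6% in control, and in the 384 other gaining loci, at right, 71.4% and 19.0%.

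Seen from the RNA side, most strongly changed genes were not among the gaining loci. Of the 325 loci with RNA at least 2-fold higher, 76 gained, 213 had at least 80% control cover, 36 had room and did not gain, and 1 of the 325, the microRNA locus Mir3593 of 0.092 kb, lost cover. No H3K36me3 region touched 17 of them in either condition, 7 of which are under 3 kb. Examples, chosen after their values were seen, are Olr1, an oxidised LDL receptor gene at 25.1 FPKM after AngII and 0.902 FPKM in control, and Ccl2, a monocyte chemokine gene at 6.30 FPKM after AngII and 0.923 FPKM in control. Slc7a11, a cystine transporter gene of 76.0 kb, was also bare in both at 5.84 FPKM after AngII and 1.45 FPKM in control.

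The losing loci were shorter, with a median of 6.93 kb, and 34.8% of them lay under 3 kb, against 18.8% of gaining loci. The largest losses in sequence were at Sugct, with 21.4% cover after AngII and 42.4% in control, Pard3b, with 28.3% after AngII and 49.2% in control, and Exoc4, with 50.5% after AngII and 70.9% in control. These are loci of 1083, 1027 and 877 kb, and their RNA stood at 1.43, 4.70 and 10.6 FPKM after AngII and 1.96, 5.42 and 12.2 FPKM in control. Gtdc1 had 24.8% cover after AngII and 60.0% in control, and without the bottom quartile of regions by score its difference turned to 3.00 points.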

How the data were processed

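RNA and H3K4me3 and H3K36me3 regions were compared between AngII-treated and control cells, 1 library each. RNA levels are FPKM that the authors deposited with lower and upper bounds; the submitters' processing notes name TopHat, Cufflinks, Cuffdiff and the build rn4. A single RNA table with columns for both conditions was used, since the copies deposited for the RNA samples do not differ in any byte. Region lists give coordinates and a score deposited by the authors; the submitters' processing notes name Bowtie, while the program that called regions was not given in the sources used here. Scores served to rank regions inside 1 list and to drop the weakest. Library depths were likewise not given there, so precision rests on the deposited bounds, whose implied relative SD had a median of 21.0% at 10 FPKM or more in both libraries. AngII H3K36me3 had 16578 regions over 588 Mb, and control had 17425 over 578 Mb.

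Of 30937 listed loci, 20869 had an accession, 15778 of these a coordinate string of their own, 15772 a usable estimate, and 8908 at least 1 FPKM. Cover was the share of a locus under merged regions. Symbols came from a RefSeq table of GRCr8, used for names only; 544 of 728 gaining loci matched exactly 1 symbol and 63 had a symbol that matched several listed loci. Ratios are log2((AngII FPKM + 1)/(control FPKM + 1)), a scale that shrinks the ratios of weakly expressed loci. Python 3.11.15, numpy 2.4.6, pandas 2.3.3, scipy 1.17.1 and matplotlib 3.10.9 were used, and the cover computation was tested on simulated data. The members and the 15 gene lists were chosen with earlier results of these data known. By rule, named genes are the 15 highest and 10 lowest ratios among gaining loci with separated bounds, and gaining loci on a list. The rule also takes the 6 with most gained sequence, 5 on each side of the threshold, the 5 most abundant in control and the 5 largest losses. Loci without a symbol and some small or repeated loci are counted but not named. Other named loci were chosen after their values were seen. Among them are Maff, Csrnp1, Jun, Klf2, Ier5, Dusp6, Dusp4, Hbegf, Fgf2, Pdgfc, Crip1 and Smim29. Alternatives varied the thresholds, the FPKM minimum, the pseudocount, the scaling, the region score and locus length; limiting loci to 1 symbol and widening control regions by 1 bin were chosen after seeing the data.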

Additional observations from a re-analysis of the deposited data

How the results depend on the processing

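A gain of over 10 points gave a median length of 20.1 kb and 88.6% with H3K4me3 in both conditions; over 50 points left 335 loci, 13.4% at least 2-fold higher, a median log2 ratio of -0.15, a median length of 7.56 kb and 78.8% with H3K4me3. An FPKM minimum of 5 left 367 loci, 15.5% higher, with 14.4 kb and 88.6% with H3K4me3. No minimum gave 1276 loci, 5.96% higher and 1.65% lower, a median log2 ratio of -0.079, 11.5 kb and 76.0% with H3K4me3. Of eligible loci under that setting, 2.06% were higher and 1.87% lower. Loci of at least 3 kb had a median length of 22.9 kb and 92.9% with H3K4me3. A pseudocount of 0.1 gave 13.2% higher, 9.89% lower and a median of -0.26, against 5.03%, 8.95% and -0.24 for eligible loci. A pseudocount of 5 gave 5.22%, 0.275% and -0.11, against 2.13%, 0.617% and -0.14. Centring gave 1.10% lower, against 1.63% of eligible loci, and a median of -0.011. A 1.5-fold threshold gave 16.3% higher and 18.3% lower, against 8.06% and 16.7% of eligible loci. Loci with exactly 1 symbol had 91.2% with H3K4me3, and control regions widened by 1 bin gave 19.3 kb. The causes were not tested, apart from what each threshold itself changes. In the settings run at 2-fold, the share of gaining loci that were higher was 2.41 to 3.68 times that of eligible loci under the same setting. At the 1.5-fold threshold it was 2.03 times. Closing gaps of up to 2 kb between regions changed no count of gaining loci. No gaining locus overlapped another listed locus, so leaving out overlapping loci could not change that count. Without the bottom quartile of regions by score, cover differences changed sign at 5 of 65 named loci, namely Pfkfb3 (-7.59 points), Cdh13 (-1.25), Lyn (-4.85), Gtdc1 (3.00) and NM_001081390 (1.004), and 11 of 55 named gaining loci were no longer past the threshold; with control regions widened it was 13 of 55. Centring changed the sign of 9 of 65 log2 ratios, all between -0.22 and 0 as deposited, and the pseudocounts changed none. No paired analysis was possible because the conditions have a single library in each assay. With 1 library per condition, the spread between cultures is unknown, and loci shorter than a region step can pass the threshold on 1 step.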

Other observations

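Further gaining loci with higher RNA and FPKM bounds apart are given as single examples, chosen after their values were seen and standing for no group. Plat, the tissue plasminogen activator gene, had 100% cover and 46.9 FPKM after AngII, against 61.0% and 11.1 FPKM in control. Gja4, a vascular connexin gene, had 100% cover and 20.8 FPKM after AngII, against 48.6% and 5.67 FPKM in control. Ano1, a calcium-activated chloride channel gene of 148 kb, had 100% cover and 5.23 FPKM after AngII, against 3.19% and 1.77 FPKM in control. These 3 stayed past the threshold without the bottom quartile of regions by score and with control regions widened, as did Hmga2 and Klhl40. Hmga2, an architectural chromatin protein gene, had 100% cover and 16.1 FPKM after AngII, against 70.5% and 1.90 FPKM in control. Klhl40, a muscle kelch protein gene, had 52.2% cover and 3.04 FPKM after AngII, against 0% and 0.0543 FPKM in control.

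Other examples rested on weak regions. Ramp3, a co-receptor of the calcitonin receptor family, had 92.8% cover and 11.7 FPKM after AngII, against 0% and 2.35 FPKM in control, and its gain was 0 points without the bottom quartile of regions by score. Under the same setting the difference at Il6r, the interleukin-6 receptor gene, was -19.99 points. Its cover with all regions was 73.8% after AngII and 19.99% in control.

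By chromosome, the share of eligible loci that gained ran between 5.35% on rat chromosome 14 (interval 3.09 to 8.54%) and 12.7% on rat chromosome 20 (8.50 to 18.1%), with 11.5% on chromosome 10 (9.27 to 14.1%). Neighbouring loci share regions, so these intervals are too narrow.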
